A study of Mus musculus with 6 samples.

Results

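The late-numbered low-abundance miRNAs are 67 of the 984 mature miRNAs counted in myocardium (heart muscle) of the mouse. MicroRNA names are numbered in the order in which the miRBase catalogue received them, so a high number marks a late entry. Of the 984 miRNAs, 403 have a number of 1000 or above. 4 of these (miR-6538, miR-2137, miR-6236 and miR-6240) were left out by name, and 67 of the other 399 (16.8%) reached a value of 1 on a scale of 1000000 reads in at least 3 libraries. The level in these same libraries therefore chose the members, and their being above that level is not a finding. Of the 581 lower-numbered miRNAs, 399 (68.7%) reached the same level.

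The 6 libraries were made from myocardial tissue at a post-mortem interval of 0 h (3 libraries) and of 6 d (3 libraries). This interval runs from death to sampling, and the series is titled as work on estimating it from miRNAs. Both groups had the same preparation, with Trizol extraction and a NEBNext small RNA library kit from 500 ng of total RNA. The labels used here give no strain, age, genetic change or treatment, and whether a group's samples came from separate animals is not stated. A p-value here is therefore set against the spread among these libraries, some or all of which may be technical.

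A miRNA is usually cut from a hairpin by Drosha in the nucleus and by Dicer in the cytoplasm, and either arm of the hairpin (5p or 3p) can be kept. A mirtron is a miRNA whose hairpin is a short intron: splicing makes its ends in place of Drosha, so that its 3p arm ends at the AG that closes the intron. In a tailed mirtron only 1 end of the hairpin is an intron end, and the other side carries extra intron sequence. Small nucleolar RNAs (snoRNAs) and Cajal body RNAs (scaRNAs) guide the chemical modification of ribosomal and spliceosomal RNA, and some are also cut into pieces that are catalogued as miRNAs.

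RefSeq held a mature sequence for 62 of the 67. The intron-end members are shown first because their positions in the genome place them at a splice site. In these 5′ to 3′ sequences from RefSeq (GRCm38.p6) the capitals mark the last 2 bases:
miR-7043-3p: acugugccucucuguuuucAG
miR-6929-3p: caggugcugucuucuucuuccAG
miR-6899-3p: uuguccuucugugucuucugcAG
miR-6988-3p: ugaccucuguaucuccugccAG
miR-7068-3p: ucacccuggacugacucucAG
miR-7015-3p: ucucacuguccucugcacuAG
Each of the 6 ends in the AG of its intron. Their share of pyrimidines ran from 61.9% in miR-7068-3p to 73.9% in miR-6899-3p. That share is not particular to intron ends. It was 54.55% in miR-3082-3p, also at an intron 3′ end, and 86.4% in miR-1249-3p, elsewhere in an intron.

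The snoRNA and scaRNA members are shown next. They include miR-1843b and miR-3068, whose arm balance passed the test described below, miR-1843a, whose arm balance did not, and miR-1291, which rose. Of all tested hairpins 38.8% passed. The arm calls of miR-1843b and miR-3068 were lost when any single library other than 6 d replicate 1 was left out. In these sequences from the same source the capitals mark the seed, bases 2 to 8, which pairs with target mRNAs:
miR-1843b-5p: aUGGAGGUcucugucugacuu
miR-1843a-5p: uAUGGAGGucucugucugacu
miR-1843b-3p: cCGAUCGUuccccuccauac
miR-1843a-3p: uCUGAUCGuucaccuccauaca
miR-3068-5p: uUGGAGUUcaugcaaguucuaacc
miR-3068-3p: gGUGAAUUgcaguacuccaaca
miR-1291: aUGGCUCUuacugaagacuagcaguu
The 5p arms of miR-1843a and miR-1843b share 20 bases in a row, offset by 1, so that their seeds differ and their reads may be split by the counting. Reads of miR-1843a-5p were between 27.8% and 32.3% of those of miR-1843b-5p at 0 h and between 40.2% and 59.1% at 6 d.

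2 further members are shown because they lie within long introns and were called between 6 d and 0 h. miR-1964-3p fell without overlap, whereas the groups of miR-1298-5p overlapped and its call was lost in most runs that left out a single library. Their sequences are:
miR-1964-3p: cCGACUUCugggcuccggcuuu
miR-1298-5p: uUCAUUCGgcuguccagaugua
Among the 62 members with a sequence, only the seed of miR-5129-3p was shared with 1 of the 341 other tested miRNAs that have one, miR-455-5p.

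The 0 h libraries held 4468547, 7906557 and 7299597 miRNA reads, and the 6 d libraries held 1889594, 699670 and 617069. Only the total of 0 h replicate 1 comes from deposited counts, and the others are approximate. Levels are given as normalised CPM, the authors' reads scaled to 1000000 with a further scale factor per library. All 4 cardiomyocyte markers had reads in every library and made up between 22.8% and 37.4% of the reads at 0 h and between 20.4% and 44.6% at 6 d. The erythrocyte marker made up between 1.02% and 1.28% at 0 h and between 5.56% and 10.3% at 6 d. The skeletal muscle marker miR-206-3p stood between 8.34 and 15.3 CPM at 0 h and between 685 and 1440 at 6 d, and the 3 epithelial markers together between 21.2 and 60.9 at 0 h and between 997 and 1942 at 6 d. The endothelial marker made up between 5.18% and 7.77% at 0 h and between 2.83% and 4.43% at 6 d. The liver marker stood between 668 and 1406 CPM at 0 h and between 2086 and 23460 at 6 d. For leukocytes and smooth muscle the groups overlapped. The 2 leukocyte markers together stood between 132 and 214 CPM at 0 h and between 138 and 325 at 6 d. The 2 smooth muscle markers made up between 5.71% and 7.30% at 0 h and between 4.69% and 7.52% at 6 d. The part of these marker differences in the results that follow was not tested. In bulk tissue, fewer cells of a type and less RNA per cell cannot be told apart.

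The members were a small part of the miRNA reads. They held 0.161%, 0.134% and 0.188% of the reads in the 0 h libraries and 0.144%, 0.432% and 0.39% in the 6 d libraries. 6 d replicate 1 lay within the 0 h range and the other 6 d libraries lay above it. In 6 d replicate 2, miR-5099 alone had 1453 reads. The 4 miRNAs left out by name held between 0.000164% and 0.000240% at 0 h, and 0.0147%, 0.248% and 0.117% at 6 d.

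The levels spread widely among the members. Their mean over the 6 libraries was at least 100 CPM for 7 members, between 10 and 100 for 9, and under 10 for 51, of which 24 were under 2. The median of these means was 2.66 CPM, against 24.0 CPM for the 399 lower-numbered tested miRNAs. The top 10 members held 87.6% of all member reads.

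**Figure D1:**
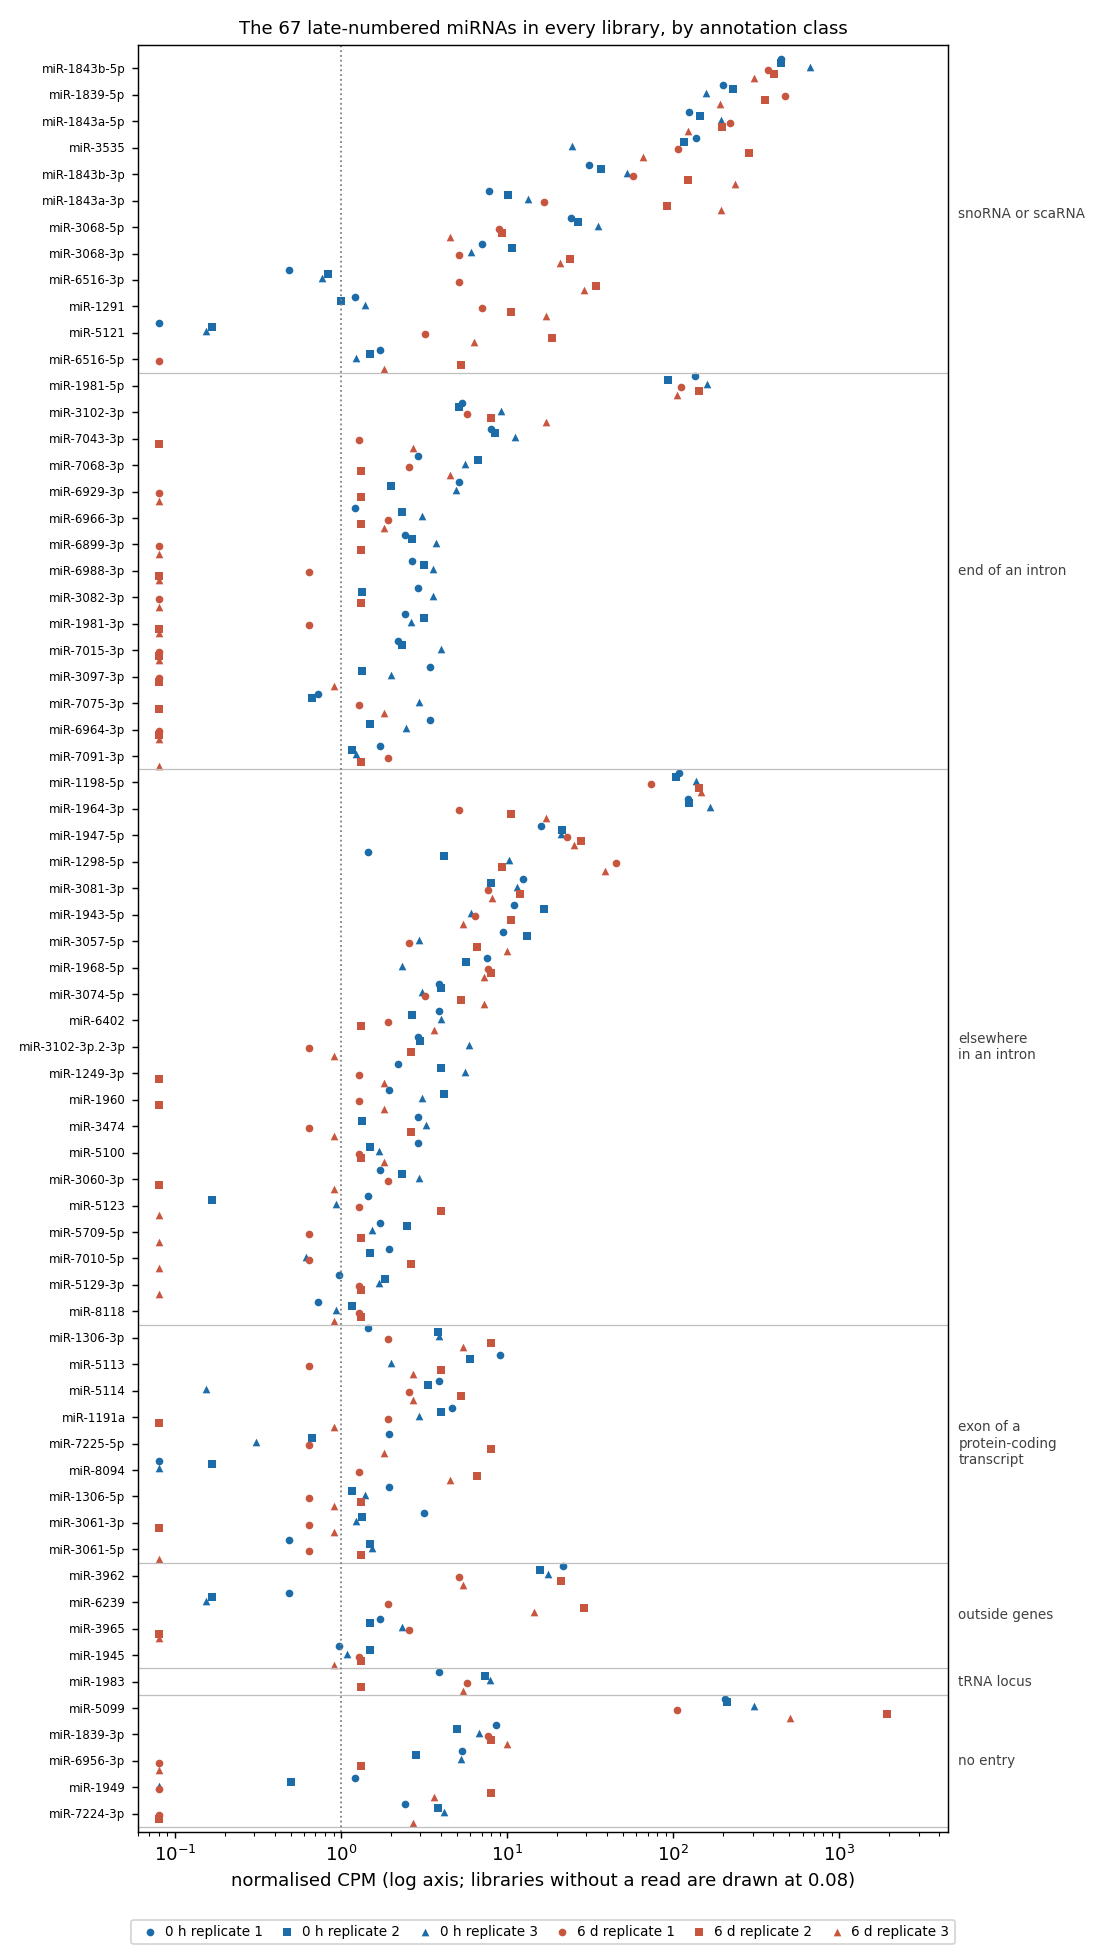
Level of each of the 67 late-numbered miRNAs in every library, in normalised CPM on a log axis, grouped by what the annotation has at the locus; points at 0.08 are libraries without a read and the dotted line is the level of 1. Blue points are 0 h and red points 6 d libraries; the snoRNA and scaRNA members reach the highest levels as a group, and many intron-end members have 6 d libraries without a read.

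At this abundance the depth of a library set what could be seen. At 0 h a single read was worth 0.243, 0.166 and 0.154 CPM, and at 6 d it was worth 0.636, 1.32 and 0.902 CPM. At 95% confidence a count of 0 allows an expected count of up to about 3 reads. This floor of 3 reads was between 0.463 and 0.730 CPM at 0 h and between 1.91 and 3.97 CPM at 6 d. A miRNA therefore reached the level of 1 with 5, 7 or 7 reads at 0 h but with 2 reads, 1 read or 2 reads at 6 d. Without molecular identifiers, such floors allow for counting error and for nothing else.

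A read was present for 65, 67 and 65 members in the 0 h libraries and for 57, 53 and 52 in the 6 d libraries. When every library was brought by calculation to the depth of the smallest, the expected numbers were 51.5, 47.6 and 50.2 at 0 h and 41.5, 51.1 and 52.0 at 6 d. The groups overlapped at equal depth, with 6 d replicate 1 lowest. At least 3 reads were present for 62, 63 and 61 members at 0 h and for 36, 34 and 36 at 6 d. Brought to the smallest depth, these numbers were 27.4, 24.3 and 27.9 at 0 h and 20.1, 33.1 and 36.0 at 6 d, with overlap. All 3 of the 6 d libraries had at least 3 reads for 28 members, and none of them did for 23. The median member had 54 reads summed over the 0 h libraries and 8 over the 6 d libraries.

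The floor also limits how a low 6 d value can be read. Had each member stayed at its mean 0 h level, fewer than 3 reads would be expected for 18 members in 6 d replicate 1, for 40 in replicate 2 and for 28 in replicate 3. For 6 members, values of at least 1 came only from the 0 h libraries (miR-6988-3p, miR-1981-3p, miR-7015-3p, miR-3097-3p, miR-6964-3p and miR-3061-3p). For 4 members they came only from the 6 d libraries (miR-6516-3p, miR-6239, miR-5121 and miR-8094). These 10 had to differ in order to pass, so they are given by value and without a test. The other 57 reached 1 in libraries of both intervals.

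Just inside the level rule were miR-1949, miR-8118 and miR-3061-3p, whose third-highest values were 1.12, 1.16 and 1.23. miR-1949 had 5, 3 and 0 reads at 0 h against 0, 6 and 4 at 6 d. Just outside were miR-1927, miR-1193-3p and miR-6989-3p, each with a third-highest value of 0.999 from 6 reads in 0 h replicate 2. The 332 late-numbered miRNAs outside the rule each had a read somewhere, and together 1437 reads over the 6 libraries, at most 27 for any one.

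**Figure D2:**
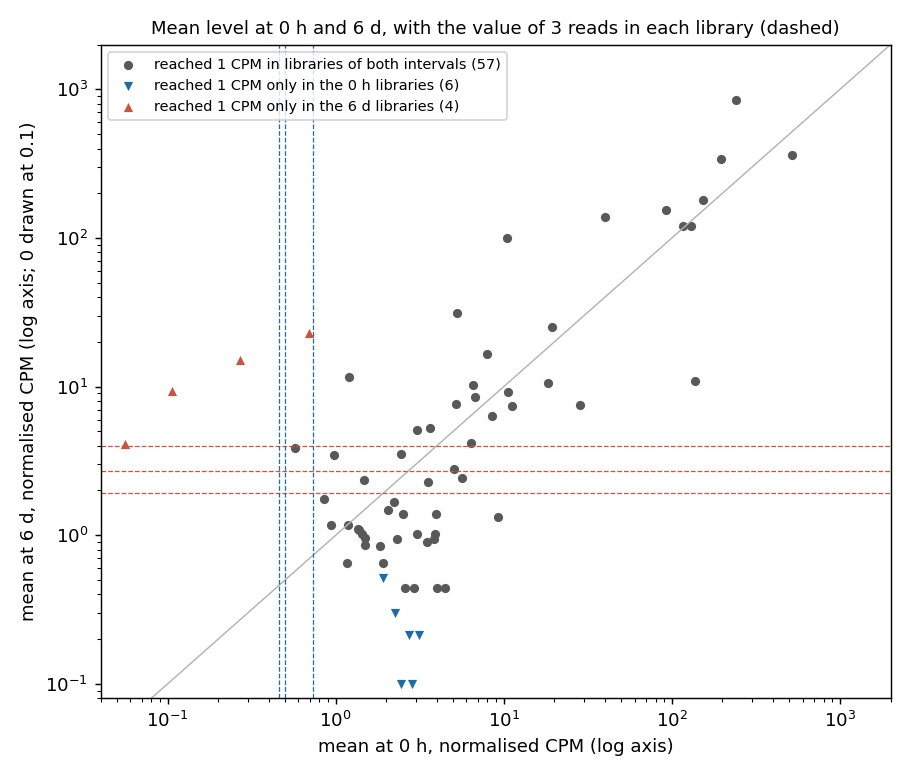
Mean level of each of the 67 late-numbered miRNAs at 0 h (horizontal) and at 6 d (vertical), in normalised CPM on log axes, with the line of equality. Dashed lines mark what 3 reads are worth in each library: 0.463 to 0.730 CPM at 0 h (blue, vertical) and 1.91 to 3.97 CPM at 6 d (red, horizontal); the members low at 6 d lie under the red lines.

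The genome annotation divides the members into a few kinds of locus, which were assigned from RefSeq positions and GENCODE M21 genes and not from the values. Of the 62 with a sequence, 12 (19.4%) lie in a snoRNA or scaRNA, against 4 (1.17%) of the 341 other tested miRNAs with a sequence and 4 (1.38%) of the late-numbered miRNAs outside the level rule. 15 touch an end of an intron within 3 bases, and 21 lie elsewhere in an intron. 9 lie in an exon of a protein-coding transcript, 4 outside annotated genes, and 1 (miR-1983) at a tRNA locus. miR-5099, miR-6956-3p, miR-1949, miR-7224-3p and miR-1839-3p have no entry.

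By arm, 29 members are 3p, 18 are 5p and 20 carry no arm in their name, whereas the other tested miRNAs comprised 202 3p, 186 5p and 11 without an arm.

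Across all 470 tested miRNAs, limma with Benjamini-Hochberg adjustment called 178 (37.9%) at an adjusted p under 0.05 between 6 d and 0 h, 75 (16.0%) higher at 6 d and 103 (21.9%) lower. Of the 67 members, 21 were called, 8 higher and 13 lower, but 9 of these 21 are among the 10 that passed through 1 interval only. Of the 57 others, 12 (21.1%) were called, 4 higher and 8 lower. However, 4 of these 8 met the level rule in the 0 h libraries and had a single 6 d read, in replicate 2, worth 1.32 CPM. Their calls are therefore not free of the choice by level. The median log2 fold change of these 57 was -0.32 and that of all tested miRNAs -0.33, so the authors' scaling places the middle of the distribution under 0. With library totals as the only scaling the medians were -0.02 for the 57 and 0.02 for all tested miRNAs. The limma test then called 7 of the 57, 4 higher and 3 lower, where the background was 26.1% (17.6% higher and 8.47% lower). The edgeR test on whole reads covered 30 of the 57 and called 7, 4 higher and 3 lower, where the background was 43.0% (22.3% and 20.7%). Since 1 was added to each value before taking log2, fold changes of miRNAs near 1 CPM come out too small. The groups did not overlap for 4 of the 57 in the higher and 13 in the lower direction, where the background was 50.6%, of which 19.8% higher and 30.9% lower.

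**Figure D3:**
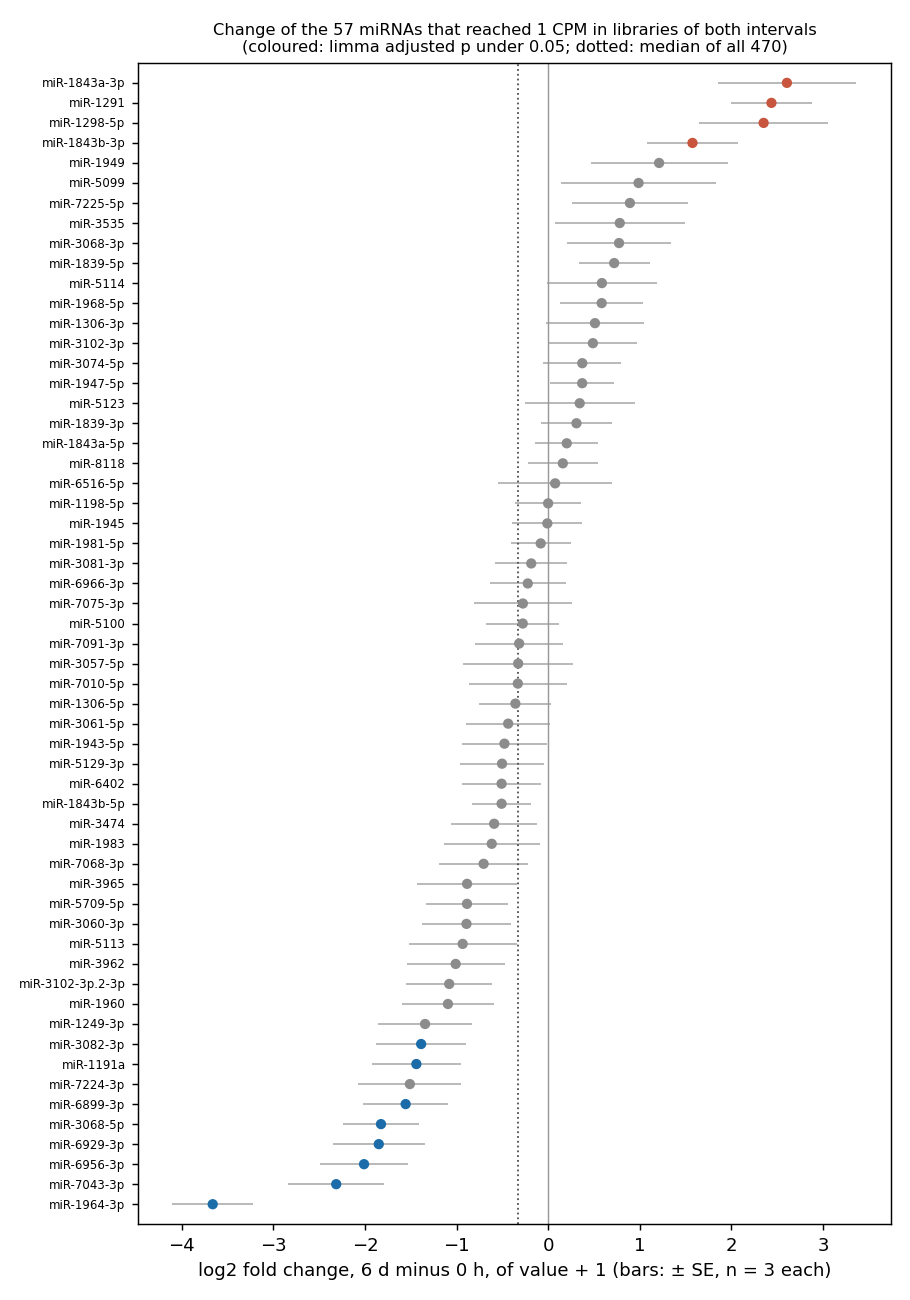
log2 fold change, 6 d minus 0 h, of the 57 late-numbered miRNAs that reached 1 CPM in libraries of both intervals, with SE bars (n = 3 libraries each); red and blue points are the 4 higher and 8 lower members with a limma adjusted p under 0.05. The dotted line is the median of all tested miRNAs, -0.33; miR-1964-3p lies farthest to the left, at -3.66.

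The largest fall among the 57 was that of miR-1964-3p, whose locus (chr7:29773344-29773365, plus strand) is inside an intron of Zfp84, a zinc finger gene, far from both of its ends. It stood at 123, 125 and 165 CPM at 0 h and at 5.09, 10.6 and 17.1 at 6 d, from 8, 8 and 19 reads. Every 6 d library lay far under every 0 h library, and at the 0 h mean 217, 104 and 153 reads would have been expected, so the floor did not limit this value. Its log2 fold change was -3.66 ± 0.44 (SE, n = 3 each, limma adjusted p = 0.0003), and it passed under every alternative, with values between -4.03 and -3.20.

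Among the 21 members elsewhere in an intron, outside snoRNAs, scaRNAs and intron ends, the rise that passed was that of miR-1298-5p, in an intron of the serotonin receptor gene Htr2c (chrX:147064918-147064939, plus strand). It stood at 1.46, 4.16 and 10.2 CPM at 0 h and at 45.2, 9.27 and 38.8 at 6 d. The groups overlapped, since 6 d replicate 2 lay under 0 h replicate 3. Its log2 fold change was 2.35 ± 0.71 (SE, n = 3 each, limma adjusted p = 0.026), and the call was lost without 0 h replicate 1 (adjusted p = 0.095), 0 h replicate 2 (0.065), 6 d replicate 1 (0.080) or 6 d replicate 3 (0.072).

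Among the most abundant intronic members, miR-1198-5p, in an intron of Gripap1, stood at 108, 104 and 137 CPM at 0 h and at 73.2, 143 and 146 at 6 d. The groups overlapped, and its log2 fold change was 0.00 ± 0.36 (SE, n = 3 each, limma adjusted p = 0.998). miR-3074-5p maps opposite the hairpins of miR-24 at both of its loci and stood between 3.09 and 3.99 CPM at 0 h and between 3.18 and 7.22 at 6 d.

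The members at intron ends were low. 14 of them are 3p arms at the 3′ end of an intron, 22.6% of the members with a sequence, against 0.587% of the other tested miRNAs and 29.4% of the late-numbered miRNAs outside the level rule. 12 of the 14 end in the bases AG, and so do 2 members elsewhere. The share ending in AG was 22.6% of members, 7.04% of the other tested miRNAs and 29.8% of the late-numbered miRNAs outside the rule. The intron is no longer than the 104 bases of the Arhgef17 intron of miR-3102-3p for 6 of the 14, and longer for 8.

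Introns about as short as a miRNA hairpin are the usual setting of a mirtron. miR-1981 fills the whole 82-base intron of Marc2, a mitochondrial amidoxime-reducing enzyme gene, with its 5p arm at the start of the intron (chr1:184822465-184822488, minus strand) and its 3p arm 2 bases before its end (chr1:184822409-184822429). miR-7068-3p closes a 74-base intron of Cherp (chr8:72470016-72470036), miR-7091-3p a 79-base intron of Dnase1l1 (chrX:74274027-74274047), miR-6988-3p an 82-base intron of Syvn1 (chr19:6051371-6051392) and miR-7075-3p a 97-base intron of Terf2 (chr8:107096025-107096045). The longer introns leave sequence before the hairpin, as in a tailed mirtron. They run from the 178 bases of the Stub1 intron that ends with miR-3082-3p (chr17:25831366-25831387) to the 36269 bases of the Klf7 intron that ends with miR-6899-3p (chr1:64042438-64042460).

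miR-1981-5p was the abundant exception among the intron-end members. It stood at 136, 93.2 and 159 CPM at 0 h and at 112, 143 and 106 at 6 d, and the groups overlapped. Its log2 fold change was -0.08 ± 0.33 (SE, n = 3 each, limma adjusted p = 0.86). Its partner miR-1981-3p had 10, 19 and 17 reads at 0 h against 1, 0 and 0 at 6 d. At its 0 h mean 4.31, 2.07 and 3.04 reads would have been expected at 6 d. The 5p arm held between 96.7% and 98.4% of the reads of the hairpin at 0 h and between 99.4% and 100% at 6 d. Since miR-1981-3p passed the level rule through the 0 h libraries alone, this difference in arms is a description.

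The 14 members at intron 3′ ends together had 183, 252 and 388 reads at 0 h against 25, 12 and 32 at 6 d. Their summed level was 44.5, 41.9 and 59.9 CPM at 0 h and 15.9, 15.9 and 28.9 at 6 d. All 14 had a read in every 0 h library, and 8, 7 and 6 of them had one in the 6 d libraries. Only miR-3102-3p had at least 3 reads in all 3 of the 6 d libraries, and 9 of the 14 reached 3 reads in none. 5 of the 14 passed the level rule through the 0 h libraries alone, so this sum is a description and supports no call.

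Of the 10 intron-end members that reached 1 in both intervals, 4 fell (miR-7043-3p, miR-6929-3p, miR-6899-3p and miR-3082-3p) and the other 6 did not pass, where the background was 37.9% called and 21.9% lower. With library totals as the only scaling, where the background was 8.47% lower, these 4 had limma adjusted p-values of 0.052, 0.051, 0.074 and 0.12, so none passed.

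miR-7043-3p, at the end of an intron of Rassf4 (chr6:116645978-116645998, minus strand), was the best measured of the 4. It stood at 8.03, 8.48 and 11.1 CPM at 0 h and at 1.27, 0 and 2.71 at 6 d, from 2, 0 and 3 reads where 14.5, 6.96 and 10.2 would have been expected at its 0 h mean. Its groups did not overlap, and its log2 fold change was -2.31 ± 0.53 (SE, n = 3 each, limma adjusted p = 0.0081). Of the alternatives tried, only scaling by library totals ended the call.

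The other 3 falls rested on the floor. miR-6929-3p (Ptges3l), miR-6899-3p and miR-3082-3p each had a single 6 d read, in replicate 2, where 1 read was worth 1.32 CPM and so counted as reaching 1 at 6 d. At its 0 h mean miR-6899-3p would have been expected to have 4.61, 2.22 and 3.25 reads in the 6 d libraries. The log2 fold changes were -1.85 for miR-6929-3p, -1.56 for miR-6899-3p and -1.39 for miR-3082-3p (limma adjusted p = 0.017, 0.024 and 0.049). miR-3082-3p lost its call in 5 of the 6 runs that left out a library (adjusted p between 0.060 and 0.16), all but that without 6 d replicate 2. miR-6899-3p lost its call without any single 0 h library or without 6 d replicate 1 (0.059 to 0.088), and miR-6929-3p without 0 h replicate 1 (0.078) or 0 h replicate 3 (0.066). DESeq2 called none of the 3 (adjusted p = 0.064 for miR-6929-3p, 0.12 for miR-6899-3p and 0.18 for miR-3082-3p). The call of miR-3082-3p was also lost with a pseudocount of 0.5 (0.055), with no filter on low values (0.093) and with RLE factors (0.078).

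The 5 intron-end members that passed through 0 h alone were at or next to 0 at 6 d. miR-7015-3p (Smap2) had 9, 14 and 26 reads at 0 h and none at 6 d, where its 0 h mean would give 4.47, 2.15 and 3.15. miR-6964-3p (C2cd2) had 14, 9 and 16 reads at 0 h and none at 6 d. miR-6988-3p and miR-3097-3p (Rgs12) each had 1 read in all at 6 d, against 53 and 35 at 0 h.

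Of the 10 intron-end members that reached 1 in both intervals, 9 had a log2 fold change under 0, and only that of miR-3102-3p was above it. The other 5 of the 15 passed the level rule through 0 h alone, which set their direction, so they are not counted here. Over all 470 tested miRNAs 291 were under 0. With library totals as the only scaling 7 of the 10 were under 0, against 233 of all 472 tested miRNAs. miR-3102-3p stood at 5.36, 5.16 and 9.11 CPM at 0 h and at 5.73, 7.94 and 17.1 at 6 d, with groups that overlapped (log2 fold change 0.49 ± 0.48, SE, n = 3 each, limma adjusted p = 0.44). A second product of the same intron, listed as miR-3102-3p.2-3p, had 12, 18 and 38 reads at 0 h against 1, 2 and 1 at 6 d (log2 fold change -1.08 ± 0.47, limma adjusted p = 0.097). miR-7068-3p stood between 2.92 and 6.65 CPM at 0 h and between 1.32 and 4.51 at 6 d, again with overlap.

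By name, 12 members come from the miRBase block that was entered mostly from a search for mirtrons, and 10 of them lie at an intron 3′ end. Of the 9 in this block that reached 1 in both intervals, 4 fell (miR-7043-3p, miR-6929-3p, miR-6899-3p and miR-6956-3p) and 5 did not pass, where the background was 21.9% lower. The count was 1 of the 9 with library totals, where the background was 8.47% lower. It was 2 of the 9 with DESeq2, where 75 of all 488 tested miRNAs were lower. miR-6956-3p had 22, 17 and 34 reads at 0 h against 0, 1 and 0 at 6 d, again a single 6 d read, with a log2 fold change of -2.01 ± 0.48 (SE, n = 3 each, limma adjusted p = 0.0097). Of the low-numbered mirtrons, miR-877 had at most 8 reads per arm in any library and miR-702-3p had 1 read in all, so neither was tested. The 2 lower-numbered miRNAs at an intron 3′ end that were tested are miR-700-5p, with a log2 fold change of 0.38 (limma adjusted p = 0.52), and miR-704, with -1.39 (0.037).

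The snoRNA and scaRNA members held 55.8%, 58.2% and 54.1% of the member reads at 0 h and 73.6%, 39.0% and 55.0% at 6 d. Of the 10 that reached 1 in both intervals, 3 rose (miR-1843b-3p, miR-1843a-3p and miR-1291), 1 fell (miR-3068-5p) and 6 did not pass. The background was 37.9% (16.0% higher and 21.9% lower). With library totals 3 were again higher and 1 lower, but miR-1839-5p took the place of miR-1843b-3p. The background was then 17.6% higher and 8.47% lower. Without 0 h replicate 1, 0 h replicate 2 or 6 d replicate 2 the counts were 1 and 1. Over all tested miRNAs these runs called 25.3%, 28.7% and 33.4%.

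miR-1291 lies in Snora34, a snoRNA in an intron of Kansl2 (chr15:98519828-98519853, minus strand). It stood at 1.22, 0.999 and 1.39 CPM at 0 h and at 7.0, 10.6 and 17.1 at 6 d. Every 6 d library was above every 0 h library, with 5, 6 and 9 reads at 0 h against 11, 8 and 19. Its log2 fold change was 2.44 ± 0.44 (SE, n = 3 each, limma adjusted p = 0.0024), and the call held under every alternative.

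The miR-1843 hairpins lie in the paralogous scaRNAs Scarna3a (miR-1843b, in an intron of Cop1) and Scarna3b (miR-1843a, in an intron of Dcaf5). Their 3p arms lie at chr1:159340400-159340419 (plus strand) and chr12:80391615-80391636 (minus strand). miR-1843b-3p stood at 30.9, 36.6 and 52.7 CPM at 0 h and at 57.3, 123 and 235 at 6 d. miR-1843a-3p stood at 7.79, 10.2 and 13.3 CPM at 0 h and at 16.5, 91.3 and 194 at 6 d. In both, every 6 d library was above every 0 h library, and 6 d replicate 1 was closest to 0 h. The log2 fold changes were 1.58 ± 0.50 for miR-1843b-3p and 2.61 ± 0.76 for miR-1843a-3p (SE, n = 3 each, limma adjusted p = 0.031 and 0.024). Without 0 h replicate 1, 0 h replicate 2 or 6 d replicate 2 neither call held (adjusted p between 0.062 and 0.11). The call of miR-1843b-3p was also lost without 6 d replicate 3 (adjusted p = 0.076) and with library totals (0.051).

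The 5p arms of the same hairpins did not pass. They were the more abundant arms except for miR-1843a in 6 d replicate 3, with 136 reads against 215 for its 3p arm. miR-1843b-5p stood at 444, 446 and 663 CPM at 0 h and at 370, 402 and 305 at 6 d, without overlap (log2 fold change -0.51 ± 0.32, SE, n = 3 each, limma adjusted p = 0.23). miR-1843a-5p stood between 124 and 193 CPM at 0 h and between 123 and 219 at 6 d (0.20 ± 0.35, limma adjusted p = 0.68).

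Within a hairpin the ratio of the arms does not depend on library scaling, and the level rule did not use it. Of the 116 hairpins with both arms tested, limma called 45 (38.8%) for a change in log2(5p/3p), 22 (19.0%) toward 3p and 23 (19.8%) toward 5p. The late-numbered members supply 8 of these hairpins. In 5 of them both arms reached 1 in libraries of both intervals. Of these 5, those of miR-1843b and miR-3068 changed, both toward 3p.

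In miR-1843b the 5p arm held 93.5%, 92.4% and 92.6% of the reads of the hairpin at 0 h and 86.6%, 76.6% and 56.5% at 6 d. The log2 ratio changed by -2.11 ± 0.61 (SE, n = 3 each, limma adjusted p = 0.030). In miR-1843a the 5p share was 94.1%, 93.4% and 93.6% at 0 h and 93.0%, 68.2% and 38.8% at 6 d, where the change of -2.50 ± 0.99 did not pass (limma adjusted p = 0.081). In both hairpins each 6 d library was under each 0 h library, and 6 d replicate 1 lay closest to the 0 h values.

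miR-3068 lies in a snoRNA in an intron of Alkbh1, with its 5p arm at chr12:87437724-87437747 and its 3p arm at chr12:87437685-87437706 (minus strand). miR-3068-5p stood at 24.1, 26.6 and 35.1 CPM at 0 h and at 8.91, 9.27 and 4.51 at 6 d, without overlap (log2 fold change -1.83 ± 0.41, SE, n = 3 each, limma adjusted p = 0.0077). miR-3068-3p stood at 7.06, 10.6 and 6.02 CPM at 0 h and at 5.09, 23.8 and 20.8 at 6 d, with overlap (0.77 ± 0.57, limma adjusted p = 0.30). The 5p share of the hairpin was 77.3%, 71.4% and 85.3% at 0 h and 63.6%, 28.0% and 17.9% at 6 d. The log2 ratio changed by -2.69 ± 0.75 (SE, n = 3 each, limma adjusted p = 0.030).

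These 2 calls of arm ratios did not hold when a single library was left out, other than 6 d replicate 1. The adjusted p was then between 0.061 and 0.095 for miR-1843b and between 0.051 and 0.094 for miR-3068, with changes toward 3p in every run. The 4 miRNAs left out by name were likewise lowest in 6 d replicate 1 among the 6 d libraries, and their part in the arm ratios was not tested.

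**Figure D4:**
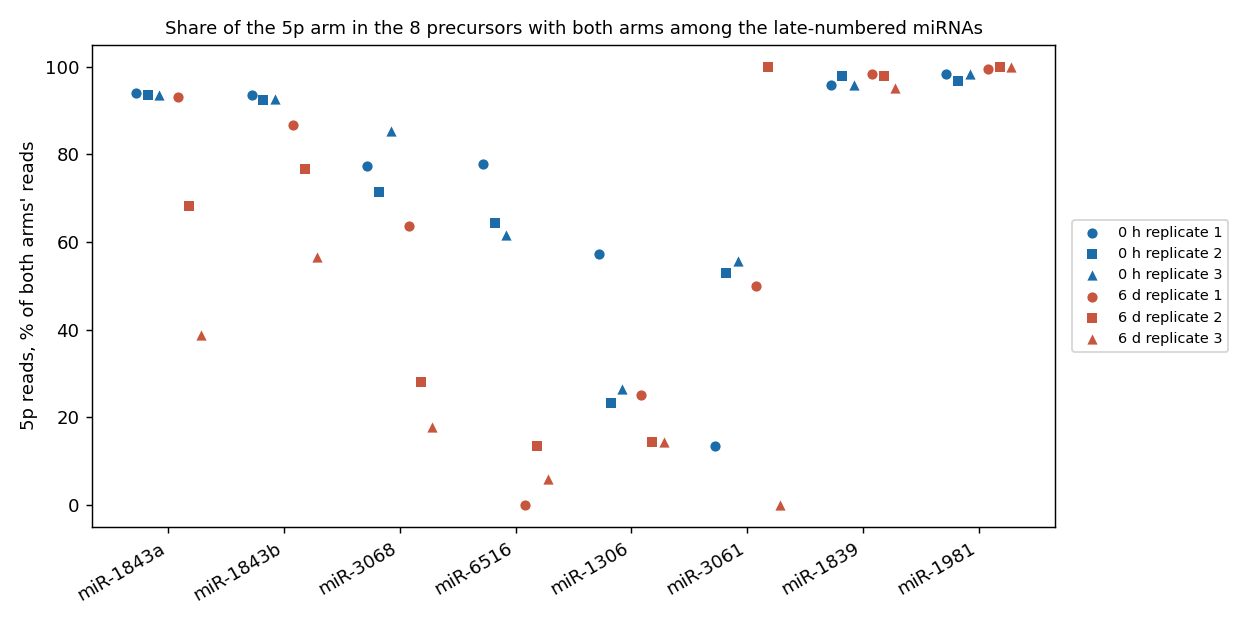
Share of 5p reads among the reads of both arms, in percent, for the 8 hairpins with both arms among the late-numbered miRNAs; each point is a library (blue 0 h, red 6 d). The 6 d points of miR-1843a, miR-1843b, miR-3068 and miR-6516 lie below their 0 h points, those of miR-1839 and miR-1981 stay above 95%, and the shares of miR-6516, miR-1306 and miR-3061 rest on few reads. For miR-1981, miR-3061 and miR-6516 the 3p arm passed the level rule through 1 interval alone.

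miR-6516 lies in a scaRNA inside the host gene Snhg20. Its 5p arm had 7, 9 and 8 reads at 0 h against 0, 4 and 2 at 6 d, and its 3p arm 2, 5 and 5 at 0 h and 8, 26 and 32 at 6 d. Since the 3p arm passed the level rule through the 6 d libraries alone, the difference in arms (5p shares of 61.5% to 77.8% at 0 h and 0% to 13.3% at 6 d) is a description. miR-5121, in Snord33 within Rpl13a, likewise passed through 6 d alone, with 0, 1 and 1 reads at 0 h against 5, 14 and 7 at 6 d.

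miR-1839 and miR-3535 did not pass. miR-1839-5p, in a scaRNA, stood at 199, 230 and 157 CPM at 0 h and at 470, 359 and 191 at 6 d (log2 fold change 0.72 ± 0.39, SE, n = 3 each, limma adjusted p = 0.18, but 0.042 with library totals, 0.041 with DESeq2 and 0.036 without 6 d replicate 3), and its 5p share stayed between 95.1% and 98.4% in all 6 libraries. miR-3535, in a snoRNA in an intron of the nucleolin gene Ncl, stood at 138, 115 and 24.4 CPM at 0 h and at 107, 287 and 65.9 at 6 d. The third replicate was the lowest in each group, and the groups overlapped (0.78 ± 0.71, limma adjusted p = 0.41).

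Among the members in exons of protein-coding transcripts, miR-1306 lies in the coding sequence of Dgcr8, the partner of Drosha (chr16:18284248-18284310, minus strand, both arms). Its 3p arm stood between 1.46 and 3.86 CPM at 0 h and between 1.91 and 7.94 at 6 d, and its arm ratio did not pass (-0.67 ± 0.61, SE, n = 3 each, limma adjusted p = 0.43). miR-1191a, in an untranslated region of BC024978, stood at 4.62, 3.99 and 2.93 CPM at 0 h and at 1.91, 0 and 0.903 at 6 d, without overlap (log2 fold change -1.44 ± 0.48, limma adjusted p = 0.039). That call was lost with library totals (adjusted p = 0.15), with no filter on low values (0.080), with DESeq2 (0.27), with a pseudocount of 0.5 (0.052), with RLE factors (0.061), and without any single 0 h library or 6 d replicate 2 (0.074 to 0.14). miR-8094, in the coding sequence of Ddx39b, had 0, 1 and 0 reads at 0 h against 2, 5 and 5 at 6 d, and passed through 6 d alone.

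The most abundant member, miR-5099, stood at 205, 210 and 305 CPM at 0 h and at 106, 1923 and 502 at 6 d. Its 6 d libraries lay both under and above the 0 h range, and its log2 fold change of 0.99 ± 0.85 did not pass (SE, n = 3 each, limma adjusted p = 0.39). Without 6 d replicate 2 the log2 fold change was -0.03, and without 6 d replicate 1 it was 2.05 (limma adjusted p = 0.02). With all libraries, DESeq2 alone among the tools gave an adjusted p under 0.05 (0.025).

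Of the members outside annotated genes, miR-3962 matches let-7g-5p, an abundant let-7 family member, over its 20 bases with 1 mismatch, G20U, where the position is counted from the 5′ end of let-7g-5p. Its reads were between 0.0854% and 0.114% of those of let-7g-5p at 0 h and between 0.156% and 0.317% at 6 d. How the authors' counting treats such near copies is not known, so its level is uncertain. miR-6239 had 2, 1 and 1 reads at 0 h against 3, 22 and 16 at 6 d, and passed through 6 d alone.

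None of the 5 late-numbered rows of the Dlk1-Dio3 cluster, a large imprinted miRNA cluster, is a member, and miR-1193-3p of that cluster lies just outside the level rule.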

How the data were processed

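The tools that the submitters' processing notes name are FastQC, Trimmomatic 0.39, cutadapt 2.8 and STAR 2.5.3a, without saying what each did. For the step that counted miRNAs, its annotation and the build, the answer is "not given in the sources used here".

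Units differ among the 6 deposited files. Counts were deposited for 0 h replicate 1, whereas the authors gave log2 values to 3 decimals for the 5 other libraries. After log2(x + 1) was undone, each library's values were whole multiples of a single step, the worth of a read. All 2692 nonzero values fine enough to test, of 3110, met this within the rounding (0.0005 in log2), which gave back their whole reads. The 418 others were too large for the rounding to resolve a read and were set to the nearest whole read. Their reads, and the totals of these 5 libraries, are therefore approximate. A factor of 0.919, derived here to make the product of all 6 factors 1, brought 0 h replicate 1 to the common scale. Because the design expected a single unit, the test planned for normalized values was used as the main one.

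limma 3.58.1 (R 4.3.3) with a trended, robust prior was fitted to log2(value + 1) for the 470 miRNAs that reached 1 in 3 or more libraries. It was also fitted without a trend to log2(5p/3p) of each hairpin, 1 read added to either arm. Alternatives were a pseudocount of 0.5, no filter, library totals, RLE factors, edgeR 4.0.16, DESeq2 1.42.0, each library left out, and a replicate block. Of these steps only the limma fit of fold changes was checked on simulated data, which gave both groups the same spread. Numbers of members at the smallest depth are exact expectations of drawing reads without replacement.

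The members and lists were chosen with earlier results of these data known. Named members are the 8 most abundant, the called ones with a mean of at least 2 CPM and up to 6 more per direction, both arms of hairpins with both arms past the filter, up to 4 of each list, and 3 on each side of the level rule; others were named after their values were seen. The lists are mirtrons, Dlk1-Dio3 members, antisense precursors (miR-3074-5p), members inside other non-coding RNA, and copies (the miR-1843 5p arms). Sequences and positions come from RefSeq (GRCm38.p6), matched by name for 62 of the 67 members, and host genes from GENCODE M21.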

Additional observations from a re-analysis of the deposited data

How the results depend on the processing

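Over the 29 named members and 5 arm ratios that were tested, 408 alternative values were computed: 332 kept their direction and their side of the threshold, 52 were no longer past it, 8 newly passed it and 16 turned direction. The turned values were all of members or ratios that did not pass: miR-1981-5p (0.374 with library totals, 0.141 with RLE factors, 0.0512 with edgeR, 0.123 with DESeq2), miR-1198-5p (0.456, 0.222, 0.238 and 0.287 in the same order) and miR-6516-5p (-0.0643 with a pseudocount of 0.5). With 1 library left out, log2 changes ran from -0.032 to 2.05 for miR-5099, -0.299 to 0.0817 for miR-1981-5p, -0.171 to 0.323 for miR-1198-5p, -0.561 to 0.766 for miR-6516-5p and -0.114 to 0.727 for the miR-1839 arm ratio. The cause of these turns was not tested.

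The 21 called members, 9 of which passed the level rule through 1 interval only, became 8 with edgeR, which tested fewer of them, and 13 to 22 with 1 library left out. The 12 called among the 57 present in both intervals became 7 with library totals, 7 with edgeR and 5 to 13 with 1 library left out. The 2 of 5 arm ratios that limma called became 0 to 3 with 1 library left out, where at least 2 had an unadjusted p under 0.05 in every run. The mean number of members with a read was 65.7 at 0 h and 54.0 at 6 d, which became 49.8 and 48.2 at the smallest depth and 62.0 and 35.3 at a minimum of 3 reads, not brought to equal depth. With both, the libraries had 27.4, 24.3 and 27.9 at 0 h against 20.1, 33.1 and 36.0 at 6 d. Over all tested miRNAs the 178 calls became 119 to 194 with 1 library left out.

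Replicate numbers were shared by the groups, but same-numbered libraries deviated together by correlations of 0.0684, 0.0641 and 0.273 only, so the numbers were not taken to pair them. 0 h replicate 1 correlated best with 6 d replicate 2 (0.161), whereas 0 h replicates 2 and 3 correlated best with their own numbers. With deviations taken from means of 3 libraries, this check cannot exclude a pairing. With the replicate number as a block, 195 miRNAs, 22 members, 13 of the 57 and 2 arm ratios passed.

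At 6 d, 3 reads are worth up to 3.97 CPM, which limits what can be said of members whose 0 h level is under it.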
